A study of Mus musculus with 36 samples.

Results

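Control cortex of a Ddx3x mouse study was taken here as 6 polysome libraries set against the 6 input libraries of the same lysates, 12 of the 36 libraries of the series, and described across all genes. The libraries were chosen by their labels: every control library of both crosses in these 2 fractions. The LoF control polysome and LoF control input groups (3 libraries each) came from Ddx3x lox/+ embryos that carried no Cre. The T532M control polysome and T532M control input groups (3 libraries each) came from Emx1-Cre/+ embryos that carried no floxed allele. All were female at stage E14.5, and each pool joined the cortices of 2 embryos of 1 genotype. Emx1-Cre acts in progenitors of the dorsal telencephalon and their descendants, so the 2 kinds of control differ in cross, in Cre and in the floxed allele at once. The study compared Ddx3x-LoF and Ddx3x-T532M cortex with these controls, and the mutant libraries are not used here.

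For each pool the cleared lysate was sampled as input and the rest was spun through a 15 to 50% sucrose gradient cut into 12 fractions. The labels do not say which of them were joined into the polysome library. On such a gradient an mRNA sinks according to the number of ribosomes it carries, so polysome RNA is RNA with several ribosomes, while input holds all RNA of the lysate. A longer reading frame has room for more ribosomes. RNAs that no cytosolic ribosome reads, such as mitochondrial transcripts and many non-coding RNAs, are expected mostly outside polysomes. Polysome over input is therefore a relative measure: it gives the share of an RNA within the polysome library against its share in the lysate, not the number of ribosomes on each molecule.

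The polysome libraries held 45154717 to 57935512 counted read pairs and the input libraries 38059093 to 46271375. The fractions separated on the first principal component (89.3% of the variance), with log CPM correlations of 0.978 to 0.994 within a fraction and 0.807 to 0.874 between fractions. Levels are in CPM, a gene's read pairs relative to a common library total after TMM, a scaling between libraries that trims extreme genes. The TMM factors were 0.667 to 0.811 in polysome and 1.31 to 1.43 in input libraries. Markers of cortex were present: Eomes, a factor of intermediate progenitors, had a median of 866 CPM in polysome and 229 CPM in input libraries, and Tbr1, a factor of deep-layer neurons, had 1303 and 271 CPM. T532M control pool 1 lay furthest out in many of the ratios below. Without its 2 libraries the calls given next numbered 7103 higher and 8350 lower in polysomes.

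Polysome and input RNA differed for most genes. Of 17553 genes tested, 7134 (40.6%) were higher and 8407 (47.9%) lower in polysomes than in input (edgeR quasi-likelihood test with the pool as a block, adjusted p under 0.05). Among these calls, 5369 genes were higher and 6186 lower by a fold of at least 2. At a fold of at least 16 the counts were 569 and 411. The 6 polysome values all lay above the 6 input values for 6027 genes (34.3%) and all below them for 6913 (39.4%). The median log2 fold change of all genes was -0.25. Scaling by total counts, without TMM, moved that median to -1.14 and the calls to 4894 higher and 11053 lower, so 30.7% of calls were higher in polysomes against 45.9% with TMM. Directions below, and counts of list members higher or lower, are therefore relative to the TMM scaling. List medians and named genes that turn over under total counts are pointed out where they appear. Counts of list members below stand against the 40.6% of all genes higher and 47.9% lower. Both libraries of a pool came from 1 lysate, and the fit gave each cross its own polysome term. The p-values therefore measure the spread of this ratio among the 3 pools within each cross, moderated across genes.

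Ddx3x, the RNA helicase gene that the study altered in other libraries (GRCm38, chromosome X, 13280970-13294052, plus strand), was intact in the T532M controls and floxed on 1 allele without Cre in the LoF controls. It had a lowest, median and highest value of 1858, 2302 and 3129 CPM in polysome libraries, against 46.7, 93.5 and 134 CPM in input libraries. The fractions did not overlap, and the log2 fold change was 4.68 ± 0.21 (SE; 25.7-fold; edgeR adjusted p = 4.22e-09), higher in 6 of 6 pools. The log2 ratio was 5.85 in T532M control pool 1 and 4.10 to 4.74 in the other pools.

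The 10 largest rises among genes with a RefSeq protein encode proteins of at least 910 amino acids. Slfn9, a Schlafen family gene, had 117, 159 and 230 CPM (lowest, median and highest) in polysome and 0.819, 1.09 and 2.58 CPM in input libraries, a 125-fold difference (log2 fold change 6.96 ± 0.20, edgeR adjusted p = 3.74e-10). Cep290, which encodes a protein of centrosomes and the base of cilia, had 61.9, 84.2 and 128 CPM in polysome and 0.635, 0.716 and 0.828 CPM in input libraries (119-fold). Usp9x, a deubiquitinase gene, had 872, 1078 and 1418 CPM in polysome and 6.96, 8.89 and 13.8 CPM in input libraries (117-fold). In all of these the lowest polysome value stood far above the highest input value. Others were Pcm1, a scaffold of centriolar satellites (116-fold), Tasor2 (98.5-fold), Dock11, an exchange factor for small GTPases (95.3-fold), Atrx, a chromatin remodeller (94.1-fold), Mki67, a chromosome-coating protein of dividing cells (89.0-fold), and Smc5, a subunit of a DNA repair complex (88.8-fold). The median input level of these 10 genes was between 0.716 and 10.1 CPM, so the size of each fold rests on a low input level.

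The 10 largest falls among genes with a RefSeq protein encode proteins of 46 to 148 amino acids, and 8 of them are ribosomal proteins. Rps12 (GRCm38, chromosome 10, 23785183-23787275, minus strand) had 11.4, 12.0 and 13.8 CPM in polysome, against 413, 457 and 482 CPM in input libraries, a 36.8-fold fall (log2 fold change -5.20 ± 0.09, edgeR adjusted p = 1.27e-10). Rpl39 was lower by 30.96-fold, Rpl32 28.02-fold, Rps21 25.4-fold, Rpl35 and Rps29 24.4-fold each, Rpl34 23.9-fold and Rpl41 23.2-fold. Tmsb4x, which encodes the actin-binding peptide thymosin beta 4, had 108, 123 and 143 CPM in polysome and 2731, 3061 and 3711 CPM in input libraries (25.4-fold lower). Hba-x, an embryonic globin gene of red blood cells, was 23.8-fold lower.

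**Figure D1:**
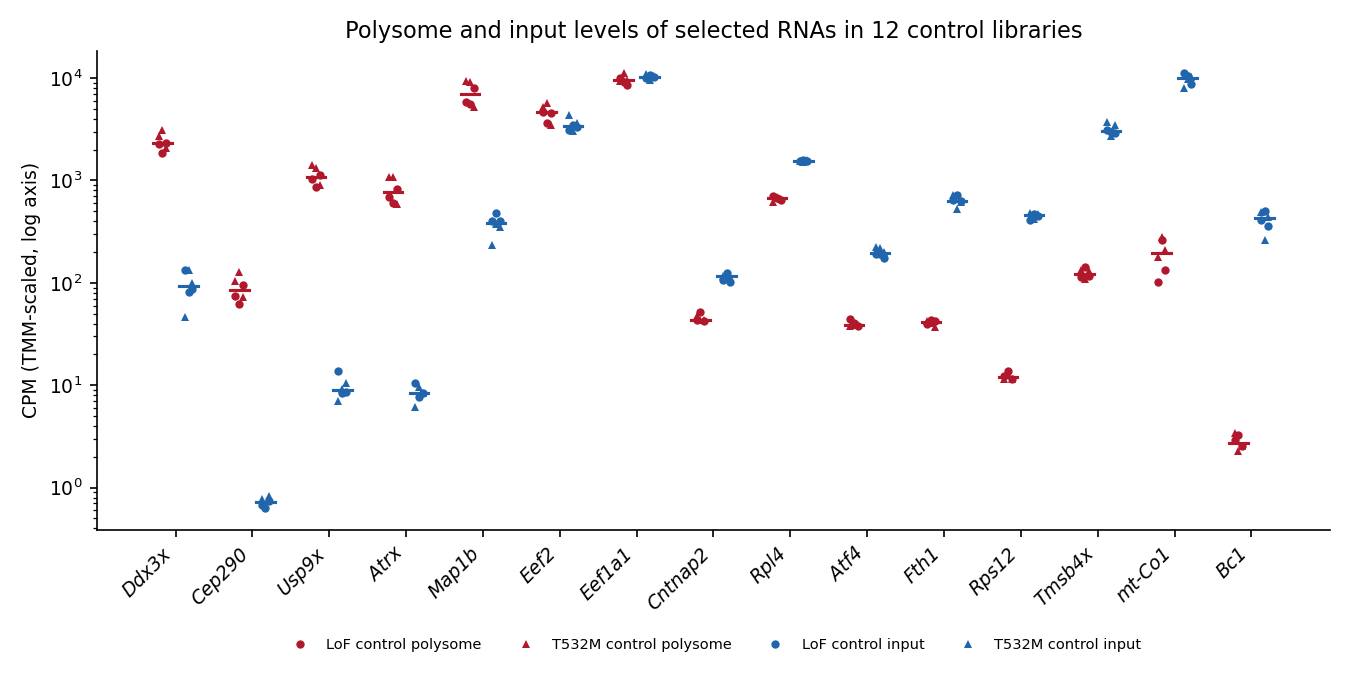
CPM after TMM scaling (log axis) of 15 RNAs in each of the 12 control libraries, with polysome libraries in red left of input libraries in blue, circles for LoF controls, triangles for T532M controls and a bar at the median of each fraction. Ddx3x, Cep290, Usp9x, Atrx and Map1b lie higher in polysomes, Eef1a1 overlaps between fractions, and Cntnap2, Rpl4, Atf4, Fth1, Rps12, Tmsb4x, mt-Co1 and Bc1 lie lower, with Bc1 at 2.73 CPM in polysomes and 426 CPM in input.

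Of the transcript features compared, which did not include whole-transcript length, protein length had the highest rank correlation with polysome over input. Among 14138 nuclear protein-coding genes, using the longest annotated reading frame of each, log2 polysome over input and protein length had a Spearman rho of 0.774 across genes (0.746 to 0.782 in single pools). This is a correlation across genes, which are not independent replicates, and all share the 12 libraries. In the decile of genes with the shortest proteins (31 to 180 amino acids) the median log2 fold change was -2.47, and 93.9% of them were lower in polysomes. In the decile below the median length (397 to 473 amino acids) the median was -0.05, with 40.8% higher and 42.5% lower. In the decile with the longest proteins (1202 to 35213 amino acids) the median was 2.56, and 94.4% were higher. A straight line gave 1.37 log2 units for each doubling of the protein.

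**Figure D2:**
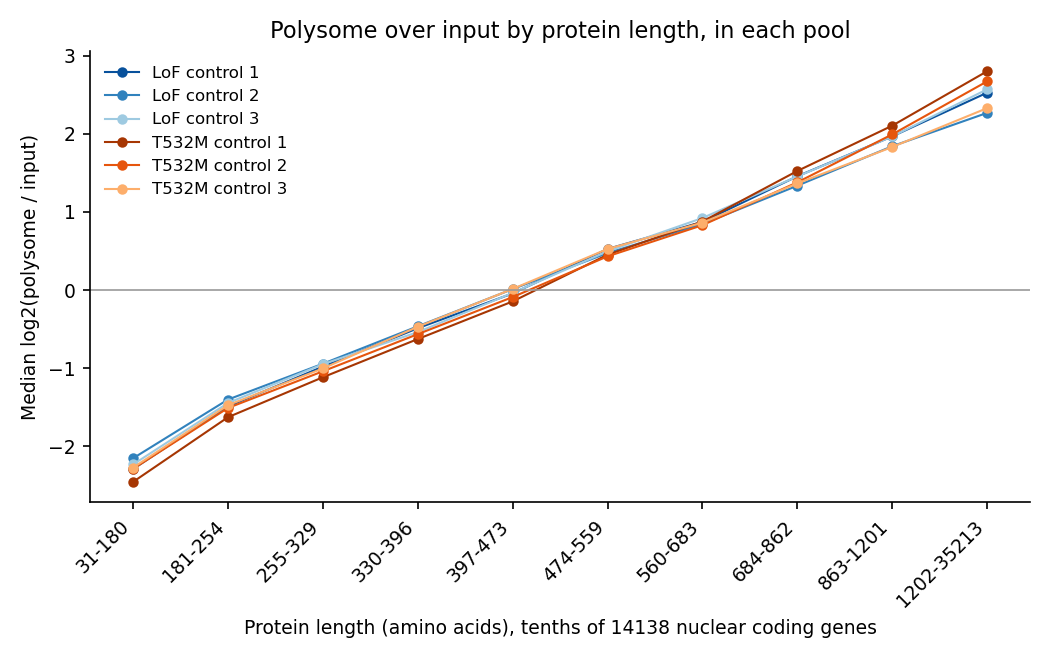
Median within-pool log2 ratio of polysome over input CPM for deciles of nuclear protein-coding genes by protein length (amino acids), with 1 line per pool. All 6 lines climb at each step; they run between -2.45 and -2.15 for the shortest proteins and between 2.27 and 2.80 for the longest, with T532M control 1 at both extremes.

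The 5 longest proteins with a mean of at least 50 CPM were all higher in polysomes. Dst (7717 amino acids) and Macf1 (7355), both giant linkers between actin and microtubules, were 32.3-fold and 26.5-fold higher, and Syne2 (6874), a nuclear envelope linker, was 13.5-fold higher. Kmt2d (5588), a histone methyltransferase, and Ubr4 (5180), a ubiquitin ligase, were 5.80-fold and 5.02-fold higher. Of the 5 shortest, Rpl41 (46 amino acids), Tmsb4x (50), Rpl39 (51) and Atp5e (52), an ATP synthase subunit, were 21.1-fold to 30.96-fold lower. The exception was Gm49353, a predicted gene annotated with 33 amino acids, which had 141, 147 and 178 CPM in polysome and 2.75, 4.35 and 6.73 CPM in input libraries (35.6-fold higher).

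Base composition moved with the ratio as well. Spearman rho with transcript GC content was -0.287 across the same genes (-0.338 to -0.207 in single pools). The decile with the lowest GC (33.3 to 42.2%) had a median log2 fold change of 1.51, and the decile with the highest GC (58.5 to 77.4%) had -0.73. Each relation was seen within levels of the other. In the quintile of genes with the longest proteins the median ran from 3.92 in the lowest GC quintile to 1.40 in the highest. In the quintile with the shortest proteins it ran from -1.57 to -2.20. Together they accounted for 66.2% of the variance between genes on a straight line, against 56.1% for length alone. The 3′ UTR length had a rho of 0.268, the number of exons 0.561, the annotated gene span 0.529, the 5′ UTR length 0.103 and the number of ATGs in the 5′ UTR 0.018. The part of library preparation in these relations was not tested.

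**Figure D3:**
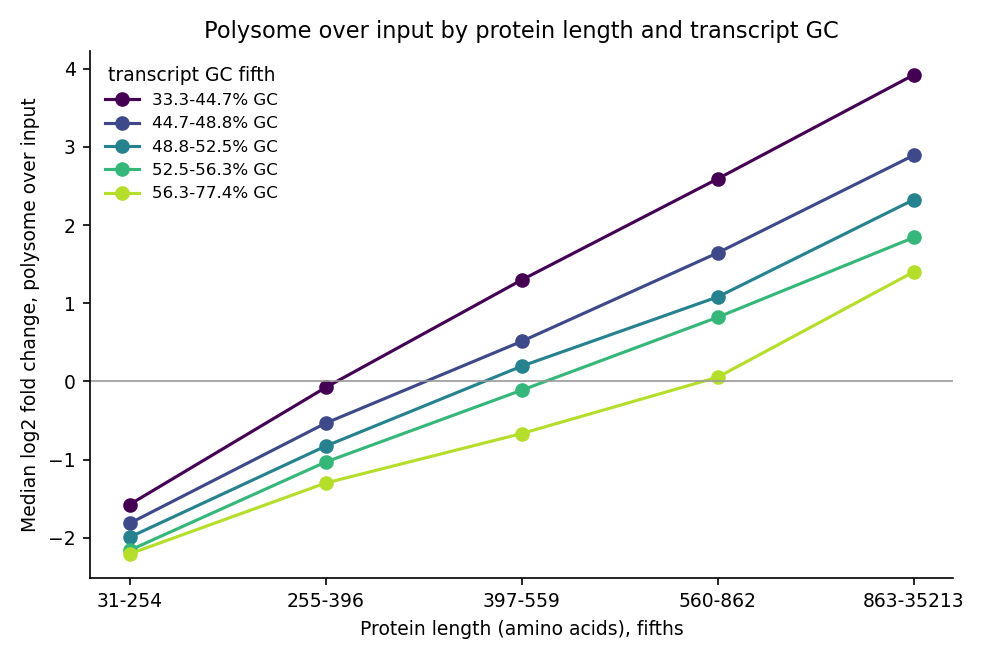
Median log2 fold change of polysome over input for quintiles of nuclear protein-coding genes by protein length (amino acids, horizontal axis) and transcript GC (colours). Each line climbs with length, and at each length the order of the 5 lines follows GC, from 3.92 to 1.40 among the longest proteins.

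Some mRNAs lay far from this line. Cntnap2, a neurexin-family adhesion protein of axons with 1332 amino acids, had 41.99, 43.2 and 51.7 CPM in polysome and 101, 115 and 125 CPM in input libraries. It was 2.53-fold lower (log2 fold change -1.34 ± 0.06, edgeR adjusted p = 3.82e-09), where the line gives 2.91. Eif4g2, which encodes an initiation factor relative that works without cap-binding eIF4E, was 1.25-fold lower (log2 fold change -0.32, edgeR adjusted p = 0.0113) against 2.28 on the line, and its levels overlapped between fractions. On the other side, Slfn9 lay 4.68 log2 units above its line, Col25a1, a neuronal collagen, 4.04 above, Zfp445, a zinc finger repressor of imprinted genes, 3.58 above, and Ddx3x 2.80 above.

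Gene classes other than protein-coding genes were mostly lower. Protein-coding genes outside the mitochondrial genome had a median log2 fold change of 0.08, against -2.24 for 1063 processed pseudogenes, -1.57 for 661 lincRNA genes, -1.39 for 736 antisense genes and -2.12 for 109 bidirectional promoter lncRNA genes. Processed pseudogenes can hold reads of their parent genes, many of which encode ribosomal proteins. Among genes with a mean of at least 2 CPM and no RefSeq protein the largest fall was of Bc1, a small neuronal RNA that inhibits translation in dendrites (GRCm38, chromosome 7, 144914470-144914637, plus strand). It had 2.26, 2.73 and 3.42 CPM in polysome and 264.7, 426 and 500 CPM in input libraries, a 144-fold fall (log2 fold change -7.17 ± 0.10, edgeR adjusted p = 1.27e-10).

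Small nucleolar RNA host genes, whose introns carry small nucleolar RNAs and whose spliced RNAs mostly encode no protein, were lower in 15 of 17 tested and higher in 2 (median log2 fold change -3.54). Gas5 was 8.63-fold, Snhg1 12.7-fold and Snhg6 19.4-fold lower. Snhg14 was 2.23-fold higher, but it has a GC content of 31.001% and turned to 1.44 log2 units lower once an offset for GC was fitted. Of 17 long non-coding RNAs with nuclear roles, 11 were lower and 4 higher (median -1.11). H19 was 11.4-fold and Pantr1 7.12-fold lower, while Kcnq1ot1, the silencing RNA of an imprinted domain, was 9.46-fold higher. Kcnq1ot1 was scarce in input against both gradient fractions. As plain shares without TMM it had a median of 4.38 CPM in polysome, 10.1 in monosome and 0.860 in input libraries. Of the 17, 13 were higher in monosome than in input in 6 of 6 pools, against 35.1% of all genes tested. Both tested small structural RNAs of ribonucleoprotein particles were lower, with a summed input level of at most 3.13 CPM.

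The machinery of translation divided sharply by part. All 80 tested genes of cytosolic ribosomal proteins were lower in polysomes (100%, against 47.9% of all genes), with a median log2 fold change of -3.57 and a range of -5.20 to -1.16. Summed over the 80, they made up 4772 to 5583 CPM of the polysome and 40914 to 48551 CPM of the input libraries. Rplp0, a stalk protein, had 123, 142 and 152 CPM in polysome and 1459, 1605 and 1864 CPM in input libraries (11.5-fold lower). Rpl4, one of the longest at 419 amino acids, had 609, 666 and 704 CPM in polysome and 1526, 1552 and 1579 CPM in input libraries (2.34-fold lower). These are short proteins, with a median of 149.5 amino acids. Against a straight line in protein length and GC over all coding genes, described above, 75 of the 80 lay below it, with a median distance of -1.47 log2 units. Ribosomal protein genes have many processed copies, and reads may be divided among them.

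These mRNAs start with a run of pyrimidines, the 5′ terminal oligopyrimidine (TOP) tract, through which growth signals switch their translation. The stretches below run from 10 bases before to 20 bases into the annotated start, from RefSeq on GRCm38.p6, 5′ to 3′. They are shown to set mRNAs with and without a run beside their ratios. Capitals mark the first run of a C followed by at least 4 of C or T, on the gene's strand, between 5 bases before and 15 bases after the start. A run that goes past this window is in capitals only inside it, as in Rps12 and Rpl35.
Rps12 (chr10:23787190-23787219, minus strand): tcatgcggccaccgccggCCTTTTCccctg
Rps21 (chr2:180257369-180257398, plus strand): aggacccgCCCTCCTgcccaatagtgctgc
Rpl35 (chr2:39005112-39005141, minus strand): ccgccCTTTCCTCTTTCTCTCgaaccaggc
Eef1a1 (chr9:78481705-78481734, minus strand): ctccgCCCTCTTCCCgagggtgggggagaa
Vim (chr2:13574301-13574330, plus strand): ttgtccagtCCTCTgccactcttgctccgg
Tpt1 (chr14:75845246-75845275, plus strand): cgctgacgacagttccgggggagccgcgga
Eef2 (chr10:81176621-81176650, plus strand): aaggccgggcgttgacgtcagcggtctctt
Such a run stood in 32 of the 59 ribosomal protein genes found in the RefSeq table (54.2%), in 7 of 12 other TOP genes (58.3%) and in 24.3% of all 32851 promoters. An annotated start can lie some bases from the start used in a tissue, so a missing run describes these letters only. Outside these 2 lists, coding genes with and without a run had medians, from the shortest to the longest quintile of protein length, of -1.95 with and -1.93 without, -0.83 and -0.81, 0.39 and 0.15, 1.13 and 1.24, and 2.23 and 2.33. The differences were not tested.

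Other TOP mRNAs did not move as one. Of 18 tested, 6 were higher, 10 lower and 2 not called (median -0.45). Eef1a1, the elongation factor that brings aminoacyl-tRNA to the ribosome (GRCm38, chromosome 9, 78478449-78489151, minus strand), had 8606, 9476 and 11246 CPM in polysome and 9476, 10352 and 10847 CPM in input libraries. The fractions overlapped, and the log2 fold change was -0.09 ± 0.12 (edgeR adjusted p = 0.472). Eef2, the translocation factor, had 3492, 4636 and 5648 CPM in polysome and 3062, 3385 and 4315 CPM in input libraries. Those ranges overlapped too (log2 fold change 0.37 ± 0.14, edgeR adjusted p = 0.0262), and under total-count scaling Eef2 turned to 0.51 log2 units lower. Tpt1, a growth-related TOP mRNA of 172 amino acids, was 15.0-fold lower, and Vim, an intermediate filament of radial glia, was 3.39-fold higher.

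Translation initiation factors were mixed, with 13 higher and 20 lower of 36 (median -0.31). These shares of 36.1% and 55.6% are near the 40.6% and 47.9% of all genes. Their summed level went the other way from the median, at 9832 to 13714 CPM in polysome and 7665 to 8111 CPM in input libraries. Eif3a, the largest subunit of the eIF3 scaffold, had 1151, 1566 and 1985 CPM in polysome and 20.4, 34.1 and 42.4 CPM in input libraries (46.3-fold higher). Eif3c was 7.05-fold higher, and Eif1, a small factor that monitors start codon choice, 6.70-fold lower. All 20 aminoacyl-tRNA synthetases, which charge tRNAs with amino acids, were higher (median 2.17, range 0.31 to 4.26), and 18 of them lay above the line for their length and GC. As plain shares of read pairs without TMM, 14 of the 20 were above input in 6 of 6 pools (26.2% of all genes tested). Eprs was 19.1-fold and Aars 6.66-fold higher. Of 34 DEAD and DEAH box helicases, 31 were higher and 3 lower (median 2.20): Ddx5 was 9.77-fold and Ddx10 41.9-fold higher, and Ddx41 2.29-fold lower.

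Messages with regulated reading frames are given next, against the 47.9% of all genes that were lower. Of 14 mRNAs whose upstream open reading frames respond to stress, 12 were lower and 1 higher (85.7% lower, median -1.53). The line for length and GC gave a median of -1.07 for this list, and the median distance from it was -0.18. Atf4, the transcription factor of the integrated stress response, had 37.5, 38.8 and 43.9 CPM in polysome and 176, 197 and 225 CPM in input libraries, which did not overlap (5.07-fold lower, log2 fold change -2.34 ± 0.06, edgeR adjusted p = 3.21e-10). Its position on the line for length and GC was -0.71. Ddit3, a stress-induced factor, was 5.51-fold and Tmem183a 4.71-fold lower, and the long Ibtk was 7.56-fold higher. Polyamine synthesis and antizyme mRNAs, several of which use programmed frameshifting or upstream frames, were lower in 9 of 11 tested (81.8%), and all 11 lay below the line. Oaz1, the antizyme made by frameshifting, was 8.67-fold and Odc1, ornithine decarboxylase, 2.10-fold lower. Azin1, the antizyme inhibitor, was 1.81-fold higher, but it turned lower under total counts (-0.03 log2 units) and with the GC offset (-0.45).

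Selenoprotein mRNAs, which recode a stop codon as selenocysteine, were lower in 14 and higher in 4 of 19 (73.7% lower, median -1.95), with a line median of -1.24 and a median distance of -0.53. Gpx1, glutathione peroxidase, was 15.5-fold and Selenow 14.7-fold lower, and Selenoi, a phospholipid-synthesis enzyme, 5.31-fold higher. Among 9 mRNAs with iron-responsive elements, 6 were higher and 3 lower. Their median of 0.65 turned to -0.23 under total counts. Fth1, the ferritin heavy chain, had 36.9, 41.5 and 43.01 CPM in polysome and 526, 632 and 727 CPM in input libraries (15.6-fold lower). Ftl1, the ferritin light chain, was 10.6-fold lower, and Tfrc, the transferrin receptor, 16.6-fold higher. The ferritins carry the element in the 5′ UTR, where iron-regulatory proteins block translation, and Tfrc carries its elements in the 3′ UTR. Ferritin lay below the line for its length and GC by 2.01 (Fth1) and 1.01 (Ftl1) log2 units.

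Mitochondrial transcripts were scarce in polysomes. Mitochondrially encoded genes took 0.0195 to 0.0420% of polysome and 1.96 to 3.38% of input read pairs. All 10 tested mitochondrial mRNAs and both mitochondrial ribosomal RNAs were lower. mt-Co1, a cytochrome oxidase subunit, had 102, 193 and 280 CPM in polysome and 8026, 10024 and 11330 CPM in input libraries (53.1-fold lower). mt-Nd1 was 72.1-fold, mt-Cytb 45.7-fold, mt-Rnr1 139-fold and mt-Rnr2 62.8-fold lower. One of the 10, mt-Nd3, had no read pair in any polysome library, so a median over the list is not given. These RNAs are read by mitochondrial ribosomes, which stay inside the organelle. They were not scarce in both gradient fractions. As plain shares without TMM, mt-Co1 had a median of 24099 CPM in monosome and 13329 CPM in input libraries, and mt-Cytb 22157 and 5870 CPM. Of the 10 mRNAs, 6 were higher in monosome than in input in 6 of 6 pools. Neither ribosomal RNA was: mt-Rnr1 had 67.9 CPM in monosome and 596 CPM in input libraries.

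Nuclear genes for mitochondria were mostly lower. Of 48 nuclear oxidative phosphorylation genes, 41 were lower and 7 higher (median -3.24), with a median length of 114.5 amino acids. The long Ndufs1, the largest complex I subunit, was 7.80-fold higher and Atp5a1, the ATP synthase alpha subunit, 2.53-fold higher. Of 34 mitochondrial ribosomal protein genes, 33 were lower (median -2.50), and all 34 lay below the line for length and GC. Mrpl18 was 7.88-fold and Mrps21 13.9-fold lower.

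Other housekeeping complexes were on both sides. All 19 Sm and LSm proteins, the small ring proteins of spliceosomal RNAs, were lower (median -3.01): Snrpd3 was 6.10-fold and Lsm5 19.5-fold lower. SR proteins and other splicing regulators, which are longer, were higher in 15 and lower in 7 of 24, with a median of 0.56 that turned to -0.33 under total counts. Hnrnph1 was 8.56-fold and Pnisr 18.3-fold higher, and Srsf9 2.77-fold lower. Proteasome subunits were lower in 17 and higher in 9 of 31 (median -0.76). Psmd1, a long subunit of the regulatory cap, was 8.05-fold higher and Psmb2, a short subunit of the core, 4.42-fold lower. Of 22 replication-dependent histone genes tested, 21 were lower (median -2.55), and H4c9 was 10.9-fold lower. Histone mRNAs end without a poly(A) tail, and their sum was 7.40 to 9.91 CPM in polysome and 48.0 to 54.6 CPM in input libraries.

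Metabolic and secretory genes were on both sides. Glycolysis genes were higher in 13 and lower in 3 of 18 (median 1.19), and 17 of the 18 lay above the line for length and GC. Pkm, pyruvate kinase, was 3.94-fold higher, while Tpi1 was 2.17-fold and Gapdh 1.26-fold lower. Cholesterol synthesis genes were higher in 11 and lower in 7 of 22, shares of 50% and 31.8% against 40.6% and 47.9% of all genes. Their median of 0.25 turned to -0.63 under total counts. Hmgcs1, an early enzyme of the pathway, was 9.25-fold higher, and Tm7sf2 4.35-fold lower. Chaperones and translocon genes of the endoplasmic reticulum were higher in 16 and lower in 14 of 30, shares of 53.3% and 46.7% against 40.6% and 47.9% of all genes. Their median of 0.60 turned to -0.28 under total counts and to -0.0467 at a mean of at least 2 CPM. Hsp90b1 and Hspa5, the major chaperones, were 31.5-fold and 9.14-fold higher, and Sec61g, a small subunit of the translocon, 17.04-fold lower. All 17 collagen chains tested, which encode long secreted proteins, were higher (median 2.64, range 0.70 to 4.20). As plain shares without TMM, 15 of the 17 were above input in 6 of 6 pools (26.2% of all genes tested). Col4a1, a basement membrane chain, was 5.27-fold higher. Col3a1 was 6.85-fold higher within pools, although its levels overlapped between fractions, at 27.2 to 529 CPM in polysome and 2.79 to 76.1 CPM in input libraries.

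Genes of dividing cells were higher in 19 and lower in 8 of 29 (median 2.05), and 23 of the 29 lay above the line for length and GC. Top2a, topoisomerase II of dividing cells, had 1202, 2003 and 3271 CPM in polysome and 52.3, 93.2 and 121 CPM in input libraries (21.5-fold higher). Cdk4, the kinase of cyclin D, was 4.24-fold lower. Ccnd2, the cyclin of radial glia, was 1.76-fold higher with TMM and 0.07 log2 units lower under total counts. Chromatin remodellers and modifiers were higher in 31 and lower in 3 of 36 (median 2.38). The line for length and GC gave a median of 2.28 for them. Of the 36, 20 lay above it and 16 below, at a median distance of 0.11. Setd2, a histone methyltransferase, was 38.4-fold and Chd4, a remodelling ATPase, 7.74-fold higher, and Smarcd3, a neuronal BAF subunit, 1.93-fold lower. Zinc finger repressor genes were higher in 78 and lower in 8 of 89 (median 1.93). Zfp445 had 450, 518 and 636 CPM in polysome and 5.53, 7.84 and 13.2 CPM in input libraries (64.6-fold higher).

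Genes of cortical cells were on both sides. In bulk RNA, fewer cells of a type and less RNA per cell cannot be told apart, but here each ratio is taken within 1 lysate. Radial glia genes were higher in 12 and lower in 7 of 19 (median 1.76). Nes, an intermediate filament of neural stem cells, was 8.25-fold and Ptprz1, a receptor phosphatase, 25.6-fold higher, and Hopx, a homeodomain protein of only 73 amino acids, 7.53-fold lower. Intermediate progenitor genes were lower in 10 and higher in 4 of 14 (median -1.01). Their summed level was the other way, at 1690 to 2068 CPM in polysome and 1335 to 1563 CPM in input libraries, and Eomes was 3.65-fold higher. Mfng, a Notch-modifying enzyme, was 4.66-fold lower.

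Cortical excitatory neuron genes were higher in 16 and lower in 4 of 22 (median 1.29). The line for length and GC gave a median of 1.22 for them. Of the 22, 15 lay above it and 7 below, at a median distance of 0.42. Zbtb20, a repressor in hippocampal and upper-layer development, was 31.03-fold, Nfib, a factor of deep-layer projections, 9.19-fold and Tbr1 4.97-fold higher, and Neurod6, a factor of postmitotic pyramidal neurons, 2.90-fold lower. Neuronal microtubule and growth genes were higher in 15 and lower in 8 of 24 (median 1.37). Map1b, a microtubule-associated protein of growing axons, had 5183, 6933 and 9429 CPM in polysome and 236, 384 and 480 CPM in input libraries (19.2-fold higher). Tubb2b, a neuronal tubulin, was 1.87-fold higher, but by only 0.02 log2 units under total counts. Nrep, a peptide of 68 amino acids, was 4.92-fold lower.

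Cell surface proteins of developing axons were among the highest lists. Axon guidance ligands and receptors were higher in 29 of 30 (median 2.98). Dcc, the netrin receptor, had 906, 1295 and 1686 CPM in polysome and 12.7, 20.4 and 30.3 CPM in input libraries (63.0-fold higher). Plxna2, a semaphorin receptor, and Epha4, an ephrin receptor, were 11.1-fold and 11.8-fold higher. The 1 member lower was Unc5a, a netrin receptor with 62.7% GC (1.79-fold). Neurexins, neuroligins and other synaptic adhesion genes were higher in 21 and lower in 4 of 28 (median 2.82). The line for length and GC gave a median of 1.92 for this list. Of the 28, 16 lay above it and 12 below, at a median distance of 0.12. Cntn2 and Ncam1, adhesion molecules of axons, were 6.65-fold and 10.7-fold higher, and Cntnap2, described above, had the largest fall of the list. FMRP family and stress granule genes were higher in 19 and lower in 4 of 24 (median 1.82). Fmr1, which encodes the RNA-binding protein lost in fragile X syndrome, was 11.7-fold and Caprin1 9.19-fold higher, and Ybx1, a cold-shock RNA-binding protein, 3.68-fold lower. Wnt and Notch genes were higher in 22 and lower in 3 of 25 (median 1.63). Their line median was 1.07, with 14 above the line and 11 below, at a median distance of 0.18. Apc, a scaffold of the beta-catenin destruction complex, was 56.4-fold and Ctnnb1, beta-catenin, 7.02-fold higher, and Dvl1 1.70-fold lower.

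Lists tied to signalling and to the helicase were mixed or lower. Immediate early genes were higher in 7 and lower in 8 of 19, shares of 36.8% and 42.1% that are near the 40.6% and 47.9% of all genes. Their median of -0.22 became 0.03 relative to the median of all genes. Jun was 2.26-fold higher and Jund, with 67.1% GC, 4.86-fold lower. Of 12 mRNAs reported to depend on DDX3X, 9 were lower and 2 higher (75% lower against 47.9% of all genes, median -1.04). The line for length and GC gave a median of -0.28 for them, and 8 lay below it and 4 above, at a median distance of -0.15. Rac1, a small GTPase, was 2.12-fold lower.

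**Figure D4:**
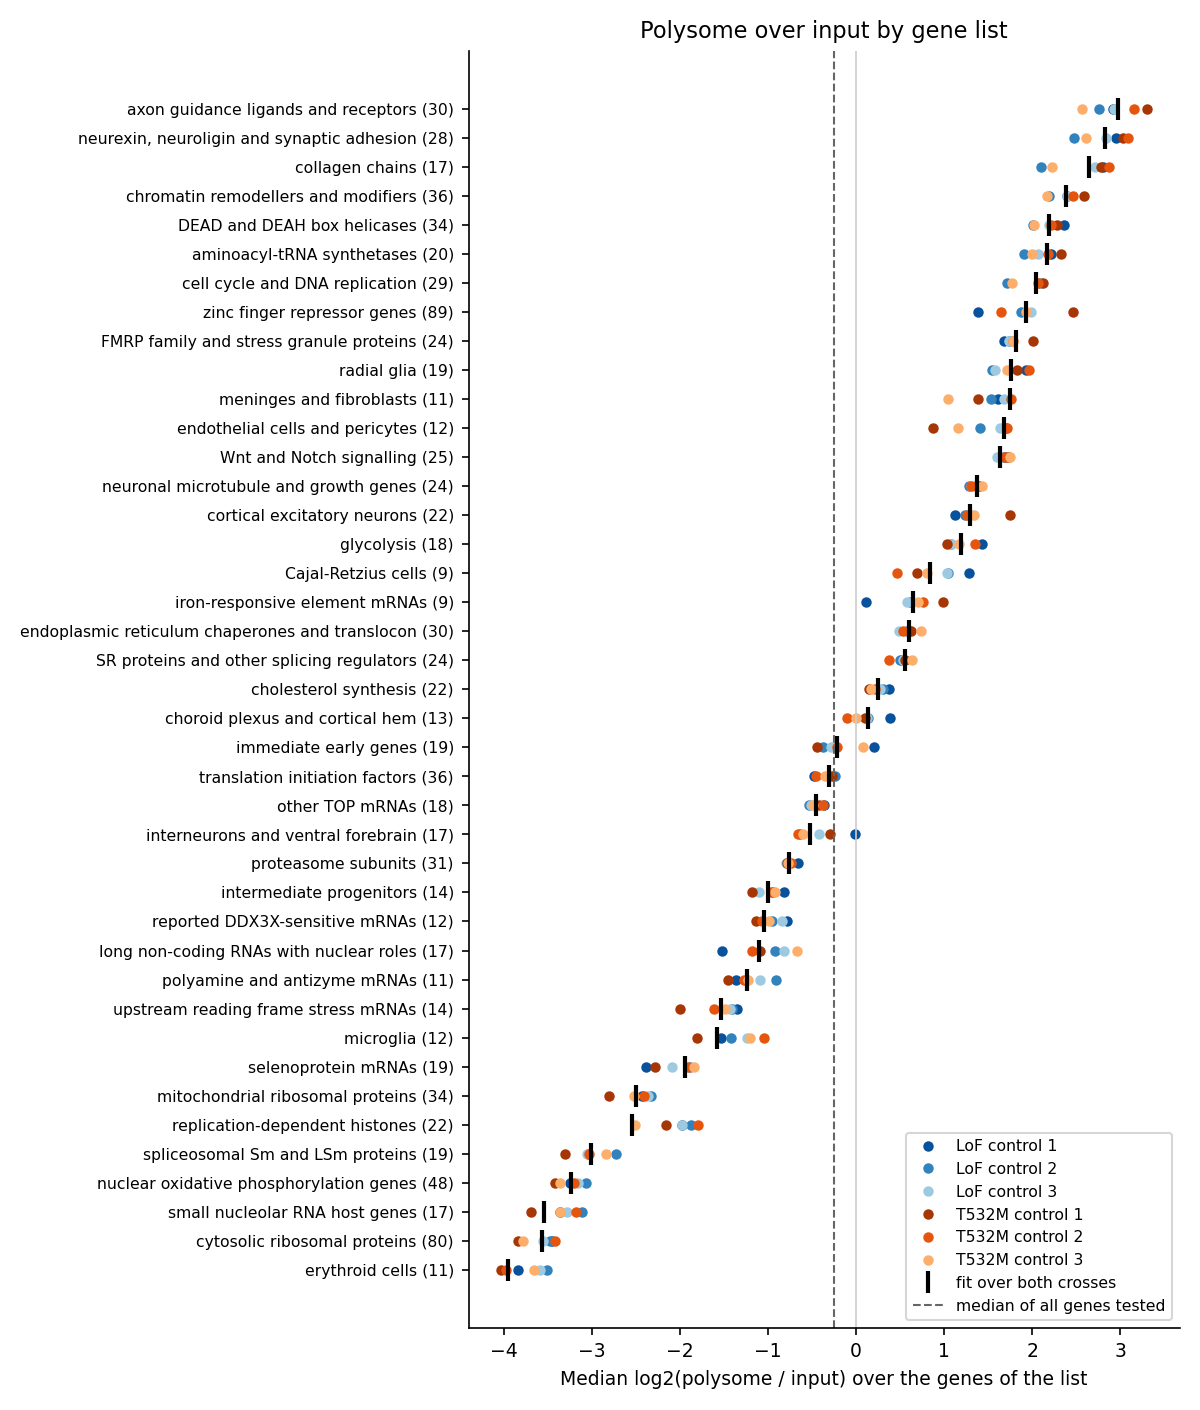
Median log2 polysome over input of each gene list with at least 9 genes tested (number in brackets), with 1 point per pool, a black bar for the fit over both crosses and a dashed line at the median of all genes. Lists of long proteins such as axon guidance (2.98) stand at the top and cytosolic ribosomal proteins (-3.57) and erythroid genes (-3.96) at the bottom; the lists with medians from 0.14 to 0.84 turn below 0 under total-count scaling.

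Markers of other cells in the pools were on both sides as well. Erythroid genes were lower in 10 of 11 (median -3.96), and their sum was 71.8 to 188 CPM in polysome and 922 to 2530 CPM in input libraries. Hbb-y and Hbb-bs, beta-like globins, were 19.4-fold and 12.7-fold lower. Endothelial and pericyte genes were higher in 9 and lower in 2 of 12 (median 1.68): Kdr and Cdh5, a growth factor receptor and a junction cadherin, were 7.25-fold and 7.69-fold higher, and the short Cldn5 2.56-fold lower. Meninges and fibroblast genes were higher in 9 and lower in 2 of 11 (median 1.74), and Cxcl12, a chemokine, was 3.58-fold lower. Microglia genes were lower in 7 and higher in 5 of 12, shares of 58.3% and 41.7% against 47.9% and 40.6% of all genes. Their median of -1.58 became 1.08 over the members with a mean of at least 2 CPM. Csf1r, a receptor of microglia, was 5.63-fold higher, and C1qc 3.65-fold lower.

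Interneuron and ventral forebrain genes were lower in 9 and higher in 7 of 17 (median -0.53), shares of 52.9% and 41.2% that are near the 47.9% and 40.6% of all genes, while their summed level was 574 to 797 CPM in polysome and 383 to 643 CPM in input libraries. Erbb4, a receptor tyrosine kinase, was 44.6-fold higher, and the short Dlx1 and Sst were 1.96-fold and 7.38-fold lower. Cajal-Retzius genes were higher in 6 and lower in 3 of 9, with a median of 0.84 that turned to -0.05 under total counts. Reln, the secreted signal of these cells with 3461 amino acids, was 3.78-fold higher, less than its line by 2.22 log2 units, and Ndnf 14.49-fold higher. Choroid plexus and cortical hem genes were higher in 4 and lower in 4 of 13, with a median of 0.14 that turned to -0.75 under total counts.

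The monosome libraries of the same pools come from the part of the gradient where RNA with about 1 ribosome sinks. They also held mitochondrial mRNAs, as given above, and give a further reading. Taken as plain shares of counted read pairs with no TMM, 2352 genes (13.4% of those tested) were higher in both polysome and monosome than in input in 6 of 6 pools. Another 4354 (24.8%) were higher in neither of them in any pool. In CPM of this kind, Mki67 had a median of 622 in polysome, 857 in monosome and 13.6 in input libraries. In the same order of fractions Zfp445 had 391, 326 and 10.5 CPM, and Pnisr 163, 197 and 17.5 CPM. Of the zinc finger repressor genes, 84 of 89 were higher in monosome than in input in 6 of 6 pools, against 35.1% of all genes tested, and 61 of 89 were higher in polysome, against 26.2%. These RNAs were scarce in input libraries against both gradient fractions. The part of library preparation in this was not tested.

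Other RNAs parted the 2 gradient fractions. Aars had 552 CPM without TMM in polysome, 34.9 in monosome and 151 in input libraries, and Ctnnb1 had 3359, 225 and 888. Both were higher in polysome and lower in monosome than in input. Atf4 had 29.2, 508 and 270 CPM, Gas5 16.5, 462 and 262, and Tmsb4x 87.0, 7058 and 4271, so these were low in polysome and high in monosome. Bc1 had 2.08, 10.8 and 585 CPM, low in both gradient fractions.

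**Figure D5:**
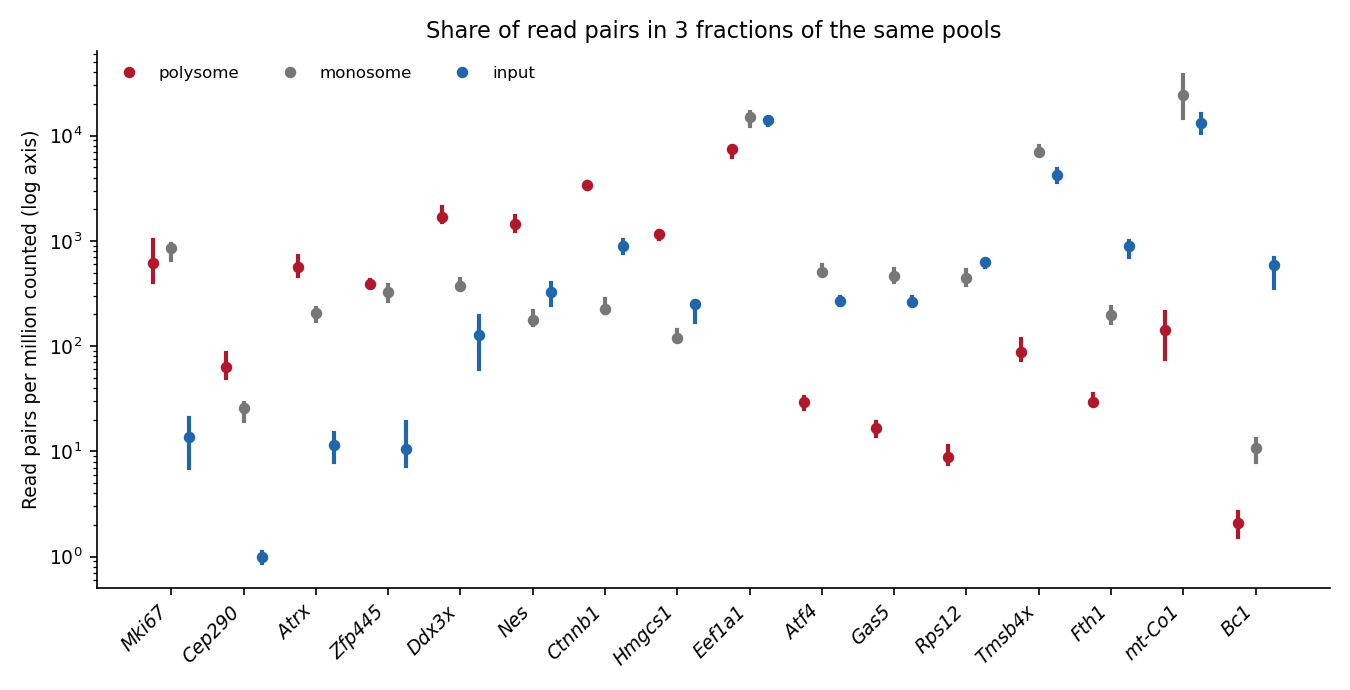
CPM without TMM (log axis) for 16 RNAs in polysome (red), monosome (grey) and input (blue) libraries of the 6 control pools, with a dot at the median and a line from the lowest to the highest library. Mki67, Cep290, Atrx and Zfp445 are lowest in input, Atf4, Gas5 and Tmsb4x are highest in monosome, and Bc1 is scarce in both gradient fractions. The median of mt-Co1 is also highest in monosome, with ranges that overlap input.

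The 2 kinds of control gave close counts of calls. In T532M controls 6754 genes (38.5%) were higher and 7880 (44.9%) lower in polysomes, and in LoF controls 6875 (39.2%) were higher and 7708 (43.9%) lower. The median of cytosolic ribosomal proteins was -3.75 in T532M and -3.51 in LoF controls, and that of axon guidance genes 3.02 in T532M and 2.95 in LoF controls. In the test of the difference itself, T532M minus LoF controls, 0 of 17553 genes were called (edgeR, lowest adjusted p = 0.853), 721 had an unadjusted p under 0.05, and DESeq2 also called 0. With 3 pools a side this does not show that the controls are alike, and cross, Cre and floxed allele cannot be told apart in it.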

How the data were processed

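RNA was measured by RNA sequencing of 50 bp reads in control cortex pools, with 3 pools per cross and fraction. The deposited table holds raw counts of read pairs per gene; per the file headers the authors counted with featureCounts 2.0.3, strand setting 2, on GENCODE M25 (GRCm38). Alignment with STAR 2.7.11a is named in the submitters' processing notes. No read trimming or duplicate step is given in the sources used here. All 12 libraries entered 1 edgeR 4.0.16 fit (R 4.3.3): filterByExpr left 17553 of 55487 genes, with TMM, a block for each of 6 pools and a polysome term per cross; quasi-likelihood p-values were adjusted by Benjamini-Hochberg over all genes tested. A fold change is polysome over input. The pairing comes from the protocol, since input was taken from the lysate that was loaded; deviations from the group means of same-numbered libraries correlated at 0.0994 to 0.436, in each case above those of other numbers. Pool ratios are log2 CPM differences with a prior count of 3, which shrinks low genes.

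Protein length, UTRs and GC come from GENCODE M21, matched by Ensembl identifier (17536 of the genes tested), using the basic transcript with the longest reading frame. Start sequences come from the RefSeq table.

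Members and the 44 gene lists were chosen with earlier results of these data known. Genes named are Ddx3x, the 10 largest rises and falls with a RefSeq protein and the 5 without, at a mean of at least 2 CPM with 6 of 6 pools in 1 direction, up to 4 members per list (the 2 most abundant and the largest rise and fall), and the 5 shortest and longest proteins at 50 CPM or more; some genes so picked are not reported here. Alternatives were other scalings, filters, tests, DESeq2 1.42.0, left-out pools and a GC offset added after seeing the data. On simulated counts, all genes changed by 2-fold or 4-fold were recovered (100 of each among 16679), with 20 false calls. Apart from these genes, which rose and fell in equal number, the simulated fractions shared a common mean profile. In the data most genes differed between fractions. The simulation therefore cannot speak to the scaling, or to the rate of false calls in the data.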

Additional observations from a re-analysis of the deposited data

Results flagged for a closer look

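Within-pool log2 ratios of polysome over input were screened for a pool far from the other 5. With them went library measures of each fraction: read pairs, TMM factors and mitochondrial and ribosomal RNA shares. Together these made 207 sets of 6 values. Chance flags about 1 in 20 such sets. The screen picked 16 of them, and T532M control pool 1 was the outlying pool in 14.

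T532M control pool 1 was highest for Ddx3x at 5.85 (4.10 to 4.74 in the other pools), Pnisr at 5.16 (3.75 to 4.16), Zbtb20 at 5.72 (4.71 to 4.92), Plxna2 at 4.01 (3.29 to 3.47) and Epha4 at 4.46 (3.25 to 3.61). It was also highest for Caprin1 at 3.86 (2.95 to 3.25), Ddx5 at 3.92 (3.04 to 3.30) and Hmgcs1 at 3.78 (2.99 to 3.17). It was lowest for Psmb2 at -2.49 (-2.13 to -2.004), Cdk4 at -2.44 (-2.06 to -1.93), Ddx41 at -1.54 (-1.16 to -1.09) and Hbb-y at -4.88 (-4.37 to -4.06). Among list medians it was highest for cortical excitatory neuron genes at 1.75 (1.12 to 1.337) and for FMRP family and stress granule genes at 2.01 (1.68 to 1.79). The same pool had the steepest relation to transcript GC (rho -0.338).

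LoF control pool 2 was highest for Tmsb4x at -4.38 (-4.80 to -4.65), and LoF control pool 1 was lowest for Neurod6 at -1.80 (-1.54 to -1.44).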

How the results depend on the processing

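Counts of calls for both crosses were 7316 higher and 8189 lower with DESeq2, and 7384 and 8780 with no filter on low counts. Leaving out 1 pool at a time gave 7033 to 7140 higher and 8212 to 8350 lower in both crosses, 6517 to 6980 and 7000 to 7800 in LoF controls, 6451 to 6774 and 7361 to 7907 in T532M controls, and 0 for the difference. Without the replicate block the counts were 7028 and 8305, 6692 and 7571, and 6561 and 7754, and no call of the difference was made. Tested against a fold of 2, the counts were 4930 higher and 5371 lower (both), 4712 and 4699 (LoF), and 4730 and 5036 (T532M), so in LoF controls more genes were then higher than lower (50.1% of calls). Under total counts 1 gene was lower in the difference. The relation to protein length, Spearman rho, was 0.8035 at a mean of at least 2 CPM and 0.809 with the GC offset, and 0.529 with the gene span in its place. The relation to transcript GC, Spearman rho, was -0.0592 once the offset was fitted, by construction. Total counts, which lower every ratio, turned the medians of iron-responsive (-0.23), splicing regulator (-0.33), cholesterol (-0.63), endoplasmic reticulum (-0.28), Cajal-Retzius (-0.046) and choroid plexus genes (-0.75), and Eef2 (-0.51), Azin1 (-0.0251) and Ccnd2 (-0.0663). A mean of at least 2 CPM, which keeps fewer genes, turned the list median of endoplasmic reticulum chaperones and translocon (-0.0467) and microglia genes (1.08). Immediate early genes stood at 0.0341 relative to all genes. The GC offset turned Azin1 (-0.45) and Snhg14 (-1.44). Eef2 lost its call without LoF control pool 1 or 3 or T532M control pool 2 (adjusted p = 0.060, 0.075 and 0.084, edgeR). Some of the input levels above are under a few CPM, so those fold sizes rest on a low input level. Large folds also stood at higher input levels, as for Map1b (19.2-fold, median 384 CPM in input) and Ddx3x (25.7-fold). The SE did not simply follow the level, however. It was 0.13 for Cep290 (median 0.716 CPM in input) and 0.10 for Bc1 (2.73 CPM in polysomes). For Dock11 it was 0.28 (3.11 CPM in input) and for Ddx3x 0.21 (93.5 CPM in input).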
